A study of Homo sapiens with 6 samples.

Results

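The genes of the EGF receptor family and its ligands were compared between Caki2 cells that re-express PBRM1 and Caki2 cells that do not. The genes were chosen by name: the receptors EGFR, ERBB2 and ERBB3, the ligands TGFA, AREG, EREG, HBEGF and BTC, the neuregulin NRG1, and the receptor inhibitor ERRFI1, which are 10 of the 25369 genes listed. Caki2 is a clear-cell renal cell carcinoma (ccRCC) line that lacks PBRM1 protein, and PBRM1 is a subunit of the PBAF chromatin remodeling complex. RNA-Seq of poly(A) RNA covered 3 replicates, lettered A, B and C and described as biological, of cells carrying an empty doxycycline-inducible lentiviral vector (Caki2+Vector) and from 3 of cells carrying the same vector with full-length PBRM1 (Caki2+PBRM1). Both groups received doxycycline at 2 µg/mL, and both are stable lines selected with puromycin and/or hygromycin, in which the reverse tetracycline transactivator is driven by a CMV promoter. Whether each line is a clone or a pool is not given in the sources used here, so a difference between the lines that does not come from PBRM1 cannot be told apart from the group difference.

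ErbB receptors are tyrosine kinases of the cell surface that pair with each other when a ligand binds. EGFR is bound by EGF, TGFA, AREG, EREG, HBEGF and BTC, ERBB3 and ERBB4 are bound by neuregulins, and ERBB2, which has no known ligand of its own, is the favoured partner of the others. The ligands are made as membrane-bound precursors and released by ADAM proteases, and the active receptors signal through the RAS-ERK and PI3K pathways before they are internalised and degraded. In kidney, EGF is made by the distal tubule, and ccRCC cells are known for making TGFA.

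The upstream promoter sequences of EREG, EGFR and ERRFI1 are shown because these are the abundant members whose values differed between the groups. They are the 250 bases before the RefSeq start (GRCh38.p14), read 5′ to 3′ on the strand of the gene. Capitals mark a TATA box (TATAAA), a GC box (GGGCGG, or CCGCCC on the other strand) or a hypoxia response core (ACGTG or GCGTG, here as CACGC on the other strand).
EREG: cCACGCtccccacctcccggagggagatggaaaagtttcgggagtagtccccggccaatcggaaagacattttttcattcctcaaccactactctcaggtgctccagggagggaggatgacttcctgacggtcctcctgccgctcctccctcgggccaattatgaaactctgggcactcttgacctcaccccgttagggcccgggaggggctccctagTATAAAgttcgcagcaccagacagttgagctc
EGFR: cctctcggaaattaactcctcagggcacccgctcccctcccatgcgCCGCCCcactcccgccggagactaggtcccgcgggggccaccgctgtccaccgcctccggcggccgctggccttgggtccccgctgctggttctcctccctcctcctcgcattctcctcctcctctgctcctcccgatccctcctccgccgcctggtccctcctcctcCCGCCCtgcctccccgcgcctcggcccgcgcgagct
ERRFI1: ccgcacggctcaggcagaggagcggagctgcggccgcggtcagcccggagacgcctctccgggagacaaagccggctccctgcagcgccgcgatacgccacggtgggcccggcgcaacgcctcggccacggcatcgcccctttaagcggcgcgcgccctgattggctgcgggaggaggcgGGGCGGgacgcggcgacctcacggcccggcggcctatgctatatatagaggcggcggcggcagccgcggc
The EREG sequence lies at chr4:74364895-74365144 on the plus strand, the EGFR sequence at chr7:55018767-55019016 on the plus strand, and the ERRFI1 sequence at chr1:8026310-8026559 on the minus strand. In base composition, EREG had 58.0% G and C, as did the median promoter, whereas EGFR had 73.6% and ERRFI1 75.2%.

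Motifs were searched on both strands in the window from 250 bases before to 50 bases after the start, for which 8 of the 10 members had an entry among 35116 promoters. TATAAA was found in EREG and AREG, and in 11.5% of all promoters. GGGCGG was found in 6 of the 8 members (EGFR, ERRFI1, TGFA, AREG, BTC and HBEGF) and in 45.0% of all promoters. The hypoxia response core was found in EREG, AREG, BTC and HBEGF, and in 48.4% of all promoters. An AP-1 site (TGANTCA) was found in ERBB2 and in 7.7% of all promoters, and a cAMP response element (TGACGTCA) in AREG and in 1.8% of all promoters. No motif searched lies inside another, and a match is a description of letters only. ERBB3 and NRG1 had no entry.

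Each sample had between 7312955 and 10835355 reads on genes. Values are given in normalized counts, meaning reads on a gene divided by a size factor of its sample (0.834 to 1.19), and are not divided by gene length. PBRM1 was 195.0, 182.3 and 182.2 normalized counts in Caki2+Vector and 2431.7, 2520.7 and 2682.4 in Caki2+PBRM1, as labelled. Of 12 kidney epithelial markers, PAX8, CDH16, KRT8, KRT18 and KRT19 were at 387.2 normalized counts or more in every sample, while PAX2, EPCAM, CUBN, AQP1, LRP2 and CA9, the last a marker of ccRCC, were at 34.0 or less. E-cadherin (CDH1), a marker of most epithelia, was at 1.9 or less. Of 8 endothelial and blood cell markers none reached the filter on low values, CDH5, CD3E and MS4A1 were at 0 in every sample, and the sum of the list ranged from 8.4 to 8.5 in Caki2+Vector, against 5.4 to 8.9 with PBRM1. Of 8 fibroblast and mural markers 4 were tested and none passed the threshold, with sums of 234.9 to 257.9 and 240.9 to 273.8 (limma, Benjamini-Hochberg). The summed kidney epithelial list ranged from 16012.2 to 17089.9 in Caki2+Vector, against 14466.1 to 15149.3 with PBRM1. Of its 12 genes 8 were tested, and 2 passed lower, KRT8 (means 8571.7 and 7569.2) and KRT18 (3529.4 and 2785.7). The gene that passed higher was CDH16 (421.4 and 555.9). The sum thus follows its abundant keratins and does not describe a fall of all markers. The part of this shift in the values of the members was not tested. Replicate A of Caki2+Vector stood apart, with a chi-square per degree of freedom of 3.09 against B and 2.84 against C, whereas it was 1.34 between B and C and 1.19 to 1.22 among the Caki2+PBRM1 replicates. The count of members past the threshold and the log2 fold changes of the tested family genes are therefore given with and without it.

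All 10 members passed the filter of at least 10 normalized counts in at least 3 samples. With limma on log2(normalized count + 1) and an adjusted p under 0.05, 4 of the 10 passed the threshold, all of them lower in Caki2+PBRM1: ERBB3, EREG, ERRFI1 and EGFR. In all, 29.2% of the 13303 genes tested passed, 13.0% lower and 16.2% higher. In 6 of the 10 members the groups did not overlap, which held for 41.7% of all genes tested. The mean was lower in Caki2+PBRM1 for 7 members and higher for 3, and the median log2 fold change of the members was -0.096, against -0.004 for all genes tested. Without Caki2+Vector A, the same number of members was lower (4) and 1, NRG1, was higher, and the median of the members was -0.082. An exact permutation test of 3 against 3 samples cannot go below 0.1, so for single genes it is given only beside the members with overlapping groups. Nothing beyond the label biological replicate is given on how the replicates were separated. The p-values set each group difference against the spread between these samples, which limma moderates over genes, and they hold for these samples only. In bulk samples, fewer cells that express a gene and less RNA of it per cell cannot be told apart.

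**Figure D1:**
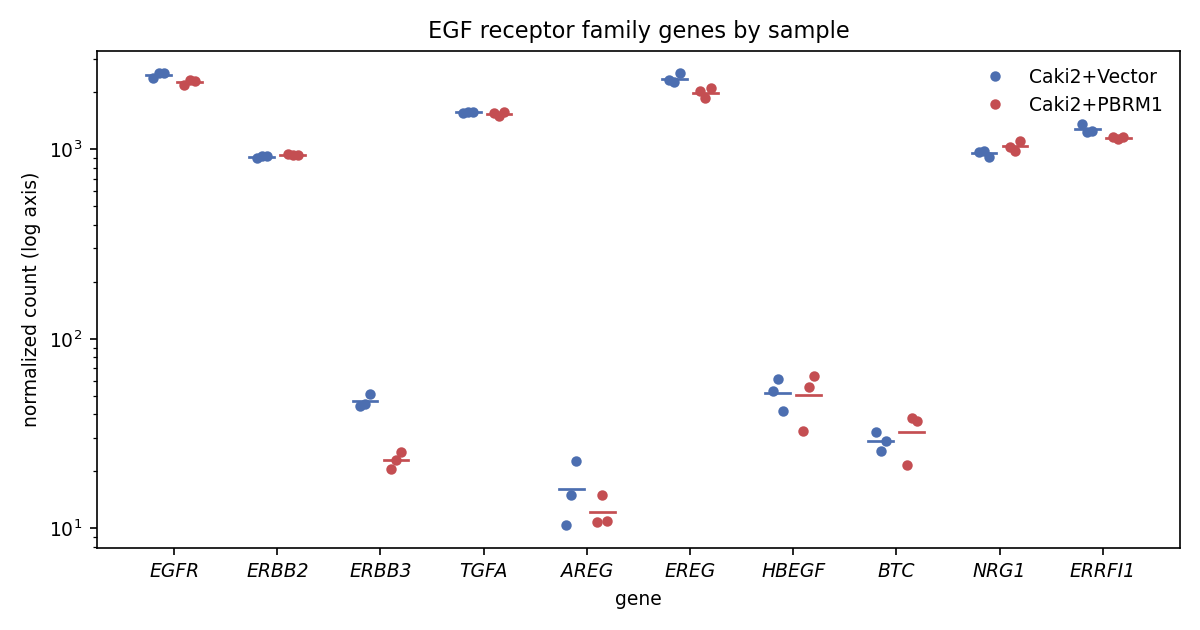
Normalized counts (log axis) of the 10 members in the 3 Caki2+Vector (blue) and 3 Caki2+PBRM1 (red) samples, with a point for each sample and a line at the mean. ERBB3 showed the widest gap between groups, while EGFR, EREG and ERRFI1 were abundant in both groups with smaller gaps.

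Among the receptors, EGFR, the receptor of most of the ligands described here, was modestly lower with PBRM1. It lies at chr7:55086710-55279321 (GRCh37, plus strand). Its normalized counts were 2369.6, 2515.0 and 2512.2 in Caki2+Vector A, B and C, and 2192.3, 2327.0 and 2303.9 in Caki2+PBRM1 A, B and C. The groups did not overlap, although the lowest Caki2+Vector sample, A, was close to the highest Caki2+PBRM1 sample, B. The mean fell by 7.8%, from 2465.6 ± 83.2 to 2274.4 ± 72.0 (SD, n = 3), and the log2 fold change of EGFR was -0.12 with an SE of 0.041 (adjusted p = 0.0323, limma). When Caki2+Vector A was left out it was -0.15 (adjusted p = 0.00083). The call was lost when any other replicate was left out, with an adjusted p of 0.0574 to 0.194, and with DESeq2 (adjusted p = 0.0827), so EGFR stood near the threshold. EGFR-AS1, an antisense gene at a mean of 11.6 normalized counts, shares 1.2% of the exon bases of EGFR, and as strand-aware counting is not given in the sources used here, its reads cannot be told apart there.

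ERBB3, whose kinase is nearly inactive and which acts as the PI3K-coupling partner of ERBB2, showed the largest change among the members. It lies at chr12:56470583-56497289 (GRCh37, plus strand). In Caki2+Vector its normalized counts were 44.5, 45.3 and 51.5, and in Caki2+PBRM1 they were 20.6, 23.1 and 25.2. Every Caki2+PBRM1 sample was well below every Caki2+Vector sample. The mean went from 47.1 ± 3.8 to 23.0 ± 2.3 (SD, n = 3), which is 0.487 times the Caki2+Vector level, and the log2 difference was -1.01 (SE 0.20, adjusted p = 0.000191, limma). These values rest on 19 to 48 reads a sample. The call held without Caki2+Vector A (-1.05, adjusted p = 0.000175).

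ERBB2, the orphan partner receptor, differed little in size. It lies at chr17:37844167-37886679 (GRCh37, plus strand), and its normalized counts were 898.4, 918.3 and 922.9 in Caki2+Vector and 945.6, 935.9 and 932.5 in Caki2+PBRM1. The samples of each group lay close together and the groups did not overlap, and their means were 913.2 ± 13.0 without and 938.0 ± 6.8 with PBRM1 (SD, n = 3). The log2 fold change was 0.039 (95% interval -0.061 to 0.14) and did not pass the threshold (adjusted p = 0.598, limma), and it was 0.027 without Caki2+Vector A, while with scaling by the total count its direction turned to -0.016. The opposite-strand genes MIEN1 and PGAP3, at means of 294.0 and 77.0 normalized counts, share 5.5% and 1.4% of its exon bases. As for EGFR, reads of these genes cannot be told apart there. ERBB4, the remaining receptor of the family, was low, at 21.8, 16.1 and 31.2 normalized counts in Caki2+Vector and 14.1, 13.3 and 8.4 in Caki2+PBRM1. This difference of -0.87 on the log2 scale (SE 0.29) had an adjusted p of 0.0234 in limma, a call that held without Caki2+Vector A (-0.89, adjusted p = 0.0308) but was lost without Caki2+Vector C (adjusted p = 0.15), without Caki2+PBRM1 C (0.137) and with DESeq2 (0.101).

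Of the EGFR ligands, EREG (epiregulin, which binds EGFR and ERBB4) was the member that passed the threshold. It lies at chr4:75230862-75254466 (GRCh37, plus strand), and its promoter is the sequence given above that holds the letters TATAAA. Its normalized counts were 2311.8, 2262.7 and 2511.0 in Caki2+Vector and 2022.3, 1856.8 and 2097.4 in Caki2+PBRM1. The highest Caki2+PBRM1 sample, C, stayed below the lowest Caki2+Vector sample, B. The mean fell by 15.7%, from 2361.8 ± 131.5 to 1992.2 ± 123.1 (SD, n = 3), or -0.25 on the log2 scale (SE 0.047, adjusted p = 0.000215, limma). Leaving out Caki2+Vector A gave -0.26 (adjusted p = 3.49e-07).

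TGFA, the ligand for which ccRCC cells are best known, was abundant and overlapped between groups. It lies at chr2:70674416-70781325 (GRCh37, minus strand). Its normalized counts were 1559.2, 1574.0 and 1580.9 in Caki2+Vector and 1550.0, 1492.4 and 1568.6 in Caki2+PBRM1. Between the groups TGFA differed by a log2 fold change of -0.032, with a 95% interval of -0.12 to 0.056 (adjusted p = 0.623, limma, and exact two-sided permutation p = 0.2). The interval leaves room for a decrease of about the size seen for EGFR, and the value was -0.038 without Caki2+Vector A, -0.011 without Caki2+PBRM1 B and -0.087 with scaling by the total count.

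HBEGF, AREG and BTC were low, and their intervals were wide. HBEGF (heparin-binding EGF, chr5:139712428-139726188, minus strand) was 53.0, 61.4 and 41.9 normalized counts in Caki2+Vector and 32.5, 56.0 and 63.8 in Caki2+PBRM1. Both groups were widely spread and overlapped, with a log2 fold change of -0.076 (95% interval -0.51 to 0.36, adjusted p = 0.825, limma, and exact permutation p = 1.0), or -0.055 without Caki2+Vector A, and the sign turned when Caki2+Vector B (0.049) or Caki2+PBRM1 A (0.21) was left out. BTC (betacellulin, which binds EGFR and ERBB4, chr4:75669969-75719733, minus strand) was 32.2, 25.5 and 28.8 in Caki2+Vector and 21.7, 38.2 and 36.9 in Caki2+PBRM1. Here Caki2+PBRM1 A was the lowest of the 6 samples while B and C were the highest, and the log2 fold change was 0.12 (95% interval -0.34 to 0.58, adjusted p = 0.733, limma, and exact permutation p = 0.6), or 0.20 without Caki2+Vector A and -0.018 without Caki2+PBRM1 B.

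AREG (amphiregulin, chr4:75310853-75320722, plus strand) was 10.4, 15.1 and 22.8 normalized counts in Caki2+Vector and 10.8, 15.1 and 10.9 in Caki2+PBRM1, from 10 to 19 reads a sample. The groups overlapped, with a log2 fold change of -0.32 (95% interval -0.95 to 0.32, adjusted p = 0.484, limma, and exact permutation p = 0.6). The size rests on single samples, since it was -0.57 without Caki2+Vector A (adjusted p = 0.185) and -0.045 without Caki2+Vector C (adjusted p = 0.944). The AREG count is also uncertain. A near-identical copy, AREGB, lies at chr4:75480629-75490486, and of 1048 windows of 100 exon bases of AREG, 96.9% were found in it without a mismatch. AREGB has no entry of its own in the files analysed here, and how reads that fit both copies were counted is not given in the sources used here.

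EGF itself, which was not among the members, was 551.0, 454.4 and 521.4 normalized counts in Caki2+Vector and 326.0, 344.9 and 358.4 in Caki2+PBRM1. All Caki2+PBRM1 samples were below all Caki2+Vector samples, and EGF fell by 0.56 on the log2 scale (SE 0.072, adjusted p = 4.38e-07, limma), or by 0.50 without Caki2+Vector A (adjusted p = 1.25e-08). EPGN (epigen) was 3.6 normalized counts or less in every sample and was not tested.

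NRG1, a ligand of ERBB3 and ERBB4 on chromosome 8, was 970.4, 978.8 and 913.3 normalized counts in Caki2+Vector and 1032.3, 983.1 and 1107.0 in Caki2+PBRM1. The groups did not overlap, but Caki2+Vector B and Caki2+PBRM1 B were nearly equal. The means were 954.1 ± 35.6 and 1040.8 ± 62.4 (SD, n = 3), with a log2 fold change of 0.12 with an SE of 0.052 (95% interval 0.018 to 0.23), which missed the threshold after adjustment (adjusted p = 0.0728, limma). It was 0.14 and passed when Caki2+Vector A was left out (adjusted p = 0.0244), but 0.093 without Caki2+Vector C (adjusted p = 0.246), 0.079 without Caki2+PBRM1 C (0.385) and 0.070 with scaling by the total count (0.326). Among the other neuregulins, NRG3 rose from 64.9 ± 2.4 to 100.6 ± 9.6 normalized counts (SD, n = 3), or by 0.62 on the log2 scale (SE 0.13, adjusted p = 0.000542, limma), and by as much without Caki2+Vector A (0.62, adjusted p = 0.000369). NRG2 (log2 fold change -0.24, adjusted p = 0.31) and NRG4 (0.18, adjusted p = 0.71) did not pass. Nor did they without Caki2+Vector A (-0.324, adjusted p = 0.194, and 0.316, adjusted p = 0.538, limma).

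ERRFI1 (also called MIG6) encodes a feedback inhibitor that binds the kinase domain of EGFR and is itself induced by EGFR signaling. It lies at chr1:8064464-8086369 (GRCh37, minus strand). Its normalized counts were 1362.3, 1230.1 and 1252.5 in Caki2+Vector and 1162.2, 1132.4 and 1159.1 in Caki2+PBRM1. The Caki2+PBRM1 samples lay close together and below all Caki2+Vector samples, of which A was the highest. The mean fell by 10.2%, from 1281.6 ± 70.7 to 1151.2 ± 16.4 (SD, n = 3), which was -0.15 on the log2 scale (SE 0.048, adjusted p = 0.0159, limma). Leaving out Caki2+Vector A, whose value was the highest, gave a log2 fold change of -0.11 that remained just past the threshold (adjusted p = 0.0484). It did not pass without Caki2+PBRM1 B (adjusted p = 0.0826), without Caki2+PBRM1 C (0.0507) or with DESeq2 (0.0509).

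**Figure D2:**
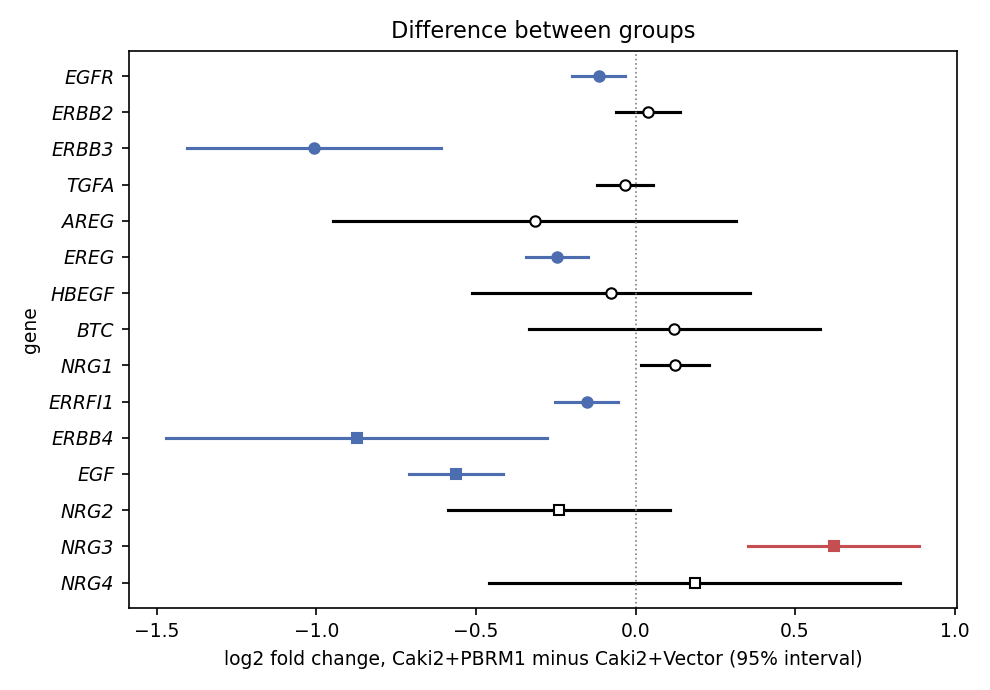
Log2 fold change (Caki2+PBRM1 minus Caki2+Vector) with its 95% interval from limma for the members (circles) and the other tested family genes (squares). Filled blue marks are lower and filled red marks higher past the threshold, and open marks did not pass; ERBB3, ERBB4 and EGF lay farthest below 0 and NRG3 farthest above it.

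To compare levels between genes, normalized counts were divided by the kilobases of all exons of a gene (GENCODE, GRCh37). On this scale EREG was the most abundant of the family in Caki2+Vector at 413 per kb, above TGFA at 320 per kb and ERRFI1 at 307 per kb, and the last 2 overlapped in their samples, through Caki2+Vector A. EGFR followed at 155 per kb, ERBB2 at 88.5 per kb, EGF at 66.7 per kb and NRG1 at 44.6 per kb, with no overlap between neighbours in that stretch. HBEGF came next at 17.4 per kb. NRG3, NRG2, BTC and AREG followed in this order, from 12.5 down to 9.81 per kb, and neighbours among these genes overlapped. ERBB3 stood at 4.02 per kb, NRG4 at 2.57 per kb, ERBB4 at 1.77 per kb and EPGN at 0.75 per kb. ERBB3 was therefore a rare transcript in these cells beside EGFR and ERBB2. By their means, the order of TGFA and ERRFI1 in Caki2+Vector depended on the length used. EGF stood above NRG1 in Caki2+Vector and below it in Caki2+PBRM1 with either length. Whether the samples overlapped also depended on the length. In Caki2+PBRM1, per kb of all exons, the samples of NRG1 and EGF overlapped and those of TGFA and ERRFI1 did not. Per kb of the longest transcript the reverse held there. In Caki2+Vector, EGF and NRG1 overlapped per kb of the longest transcript.

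Summed per kb, the transcripts of the EGFR ligands were 838.6 ± 27.7 in Caki2+Vector, while Caki2+PBRM1 had 743.4 ± 29.6 (SD, n = 3), given as a description. EREG made up 49.28% ± 1.12 of that sum in Caki2+Vector and 46.89% ± 1.38 in Caki2+PBRM1, and TGFA 38.13% ± 1.13 and 42.07% ± 0.82. EGF made up 7.95% ± 0.70 and 6.05% ± 0.26, and the remaining ligands each held a share of 2.75% or less in every sample. Of the summed receptors, EGFR held 62.12% ± 0.50 and 60.33% ± 0.91, ERBB2 35.55% ± 0.47 and 38.45% ± 0.91, and ERBB3 1.62% ± 0.10 and 0.83% ± 0.07. Dividing by the longest transcript instead put the share of EREG in Caki2+Vector at 50.15% and moved ERRFI1 above TGFA there. The receptor shares depended more on the length used. With the longest transcript EGFR held 56.11% in Caki2+Vector and 54.08% in Caki2+PBRM1, and ERBB2 41.77% and 44.83%. Per kb of all exons, Caki2+Vector B and C alone gave ligand shares of 49.57% for EREG, 38.12% for TGFA and 7.58% for EGF. Their receptor shares were 62.37% for EGFR, 35.28% for ERBB2 and 1.64% for ERBB3.

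**Figure D3:**
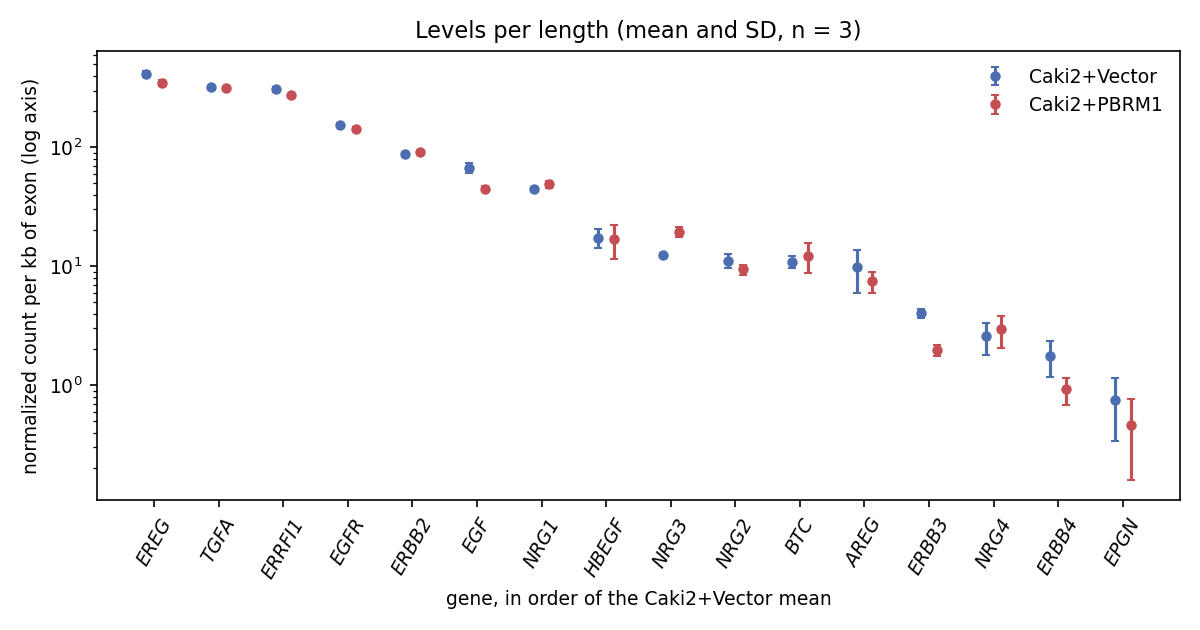
Normalized count per kb of exon (log axis), mean and SD over 3 samples, for the members and the other family genes, ordered by the Caki2+Vector mean (blue, with Caki2+PBRM1 in red). EREG, TGFA and ERRFI1 had the highest levels, and ERBB3 and ERBB4 were far below EGFR and ERBB2.

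EREG, AREG, BTC and EPGN lie in a row on chromosome 4, so genes within 500 kb of EREG, AREG and BTC were also looked up. AREG starts 80.0 kb and BTC 488.9 kb beyond the start of EREG, and EPGN starts at -56.7 kb, before it. Of the 13 genes listed in this stretch 7 passed the filter on low values, of which PARM1, a membrane mucin-like protein, passed it only through Caki2+PBRM1, where it was high. Its values were 4.7, 6.6 and 8.4 normalized counts in Caki2+Vector and 16.2, 16.9 and 29.4 in Caki2+PBRM1, and they are not counted as a result. Of the other 6 genes 3 passed the threshold, to be read beside the 29.2% of all genes tested that passed. Among these 3, EREG was the only ligand gene and the only one that was lower. The limma intervals of AREG (-0.947 to 0.316) and BTC (-0.335 to 0.578) included the log2 fold change of EREG (-0.246). The values therefore do not separate EREG from these 2 ligand genes. CXCL5, a neutrophil-attracting chemokine, rose from 31.9 ± 8.0 to 64.2 ± 7.3 normalized counts, a log2 difference of 1.01 (SE 0.19, adjusted p = 0.00012, limma), or 1.14 without Caki2+Vector A. CXCL1, a chemokine of the same class, rose from 15.4 ± 3.8 to 25.8 ± 2.4 (0.73, SE 0.25, adjusted p = 0.0284), but lost its call with DESeq2 and when any of 5 of the 6 samples was left out, Caki2+Vector A (adjusted p = 0.0667) among them. The neighbour MTHFD2L had a log2 fold change of -0.34 with an SE of 0.19 (adjusted p = 0.185) and did not pass.

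**Figure D4:**
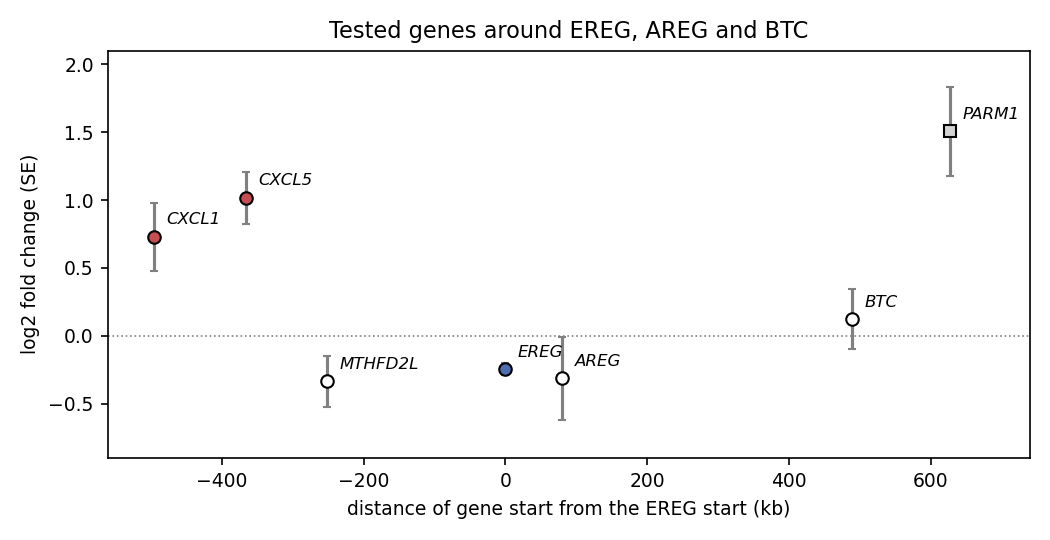
Log2 fold change (bars, SE from limma) of the tested genes around EREG, AREG and BTC against the distance of each gene start from that of EREG in kb. EREG (blue) was lower, CXCL1 and CXCL5 (red) were higher, and the open circles did not pass the threshold, while the grey square is PARM1, which passed the filter on low values only through Caki2+PBRM1.

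Other genes of the pathway were read from lists that, like the members, were written with results of these data known, so their counts and medians are descriptions, to be read beside the 29.2% of all genes that passed. With scaling by the total count, 1624 of the 13303 genes tested were higher and 2777 lower, with a median of -0.058. List values with that scaling are to be read beside these. Without Caki2+Vector A, 2252 genes were higher and 1918 lower (median -0.006). Of the 16 genes named from these lists by their adjusted p, 15 passed without Caki2+Vector A as well (all but RHBDF1), with log2 fold changes 0.69 to 1.12 times those of all samples. Of 12 genes that shed or process the ligands, 11 were tested, 4 passed higher and 1 lower (45.5% in all), with a median log2 fold change of 0.074 that was 0.028 without Caki2+Vector A and 0.020 with scaling by the total count. FURIN, a convertase that activates ADAM proteases, rose from 495.1 ± 45.1 to 726.8 ± 27.4 normalized counts, or by 0.56 on the log2 scale (SE 0.064, adjusted p = 6.61e-08, limma). ADAM15 rose from 458.6 ± 35.0 to 636.6 ± 15.3 (0.47, SE 0.063, adjusted p = 7.76e-07). ADAM10, the protease that releases EGF and BTC, showed a smaller rise (0.13, adjusted p = 0.00794), which was lost with scaling by the total count (adjusted p = 0.116). RHBDF1, which escorts ADAM17 to the cell surface, also rose (0.26, adjusted p = 0.0139), but not without Caki2+Vector A (adjusted p = 0.0546), without Caki2+PBRM1 B (0.119) or with DESeq2 (0.0525). The gene of this list that passed lower was ADAM9 (means 5800.0 and 5362.8, log2 fold change -0.11, adjusted p = 0.0204, limma). ADAM17 did not pass (-0.075, adjusted p = 0.209). ADAM9 and ADAM17 were named after their values were seen. With Caki2+Vector A left out, and likewise with scaling by the total count, 3 genes of this list were higher and 2 lower.

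All 19 adaptors and first effectors of the receptors were tested, of which 5 passed higher and 3 lower (42.1% in all, median 0.067), against 3 and 3 with scaling by the total count (median 0.012). GAB1, the docking protein that links EGFR to PI3K, rose from 73.4 ± 10.1 to 153.7 ± 7.6 normalized counts, by 1.06 on the log2 scale (SE 0.12, adjusted p = 5.25e-08, limma). PIK3R2, a regulatory subunit of PI3K, rose as well (0.40, adjusted p = 5.96e-05), as did the transcription factor STAT3 (0.18, adjusted p = 0.00407). PIK3CB, a catalytic subunit of PI3K, fell (-0.18, adjusted p = 0.0109), a call that was lost without Caki2+PBRM1 B (adjusted p = 0.0546). The count without Caki2+Vector A was 4 higher and 3 lower, and it was 4 in all without Caki2+PBRM1 B and likewise without Caki2+PBRM1 C.

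Of 23 genes of receptor traffic and turnover, 22 were tested, 3 passed higher and 2 lower (22.7% in all, below the share of all genes, median 0.015), and CBLC was at 0 in every sample. PTPRJ, a receptor-type phosphatase that acts on EGFR, rose from 2958.9 ± 77.2 to 3411.8 ± 30.7 normalized counts (0.21, SE 0.037, adjusted p = 8.63e-05, limma). LRIG1, which promotes the degradation of ErbB receptors, rose (0.34, adjusted p = 0.00718), but not with DESeq2 (adjusted p = 0.0536). The endocytic adaptor EPS15L1 fell (-0.23, adjusted p = 0.000794), and so did the sorting protein TSG101 (-0.22, adjusted p = 0.00286). With Caki2+Vector A left out, 3 genes were higher and 4 lower, and the median was -0.010. With scaling by the total count 2 were higher and 5 lower (median -0.039, against -0.058 for all genes tested).

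Genes of ERK output and feedback, a list of targets and inhibitors of this signaling, had a median log2 fold change of 0.24, or 0.18 with scaling by the total count. All 15 were tested, 7 passed higher and 1 lower (53.3% in all), and without Caki2+Vector A 7 were higher and 2 lower. SPRY1, an inhibitor of receptor tyrosine kinase signaling, rose from 31.9 ± 4.2 to 79.1 ± 3.2 normalized counts, by 1.29 on the log2 scale (SE 0.16, adjusted p = 3.73e-07, limma). DUSP6, the cytoplasmic ERK phosphatase, rose from 62.9 ± 6.3 to 126.9 ± 18.4 (0.99, SE 0.13, adjusted p = 1e-06). DUSP5, the nuclear ERK phosphatase, rose from 1231.5 ± 38.0 to 1663.9 ± 66.9 (0.43, SE 0.046, adjusted p = 1.2e-08). PHLDA1, a pleckstrin homology domain protein, rose from 1067.1 ± 122.4 to 1868.9 ± 93.6 (0.81, SE 0.066, adjusted p = 5.19e-08). The gene of this list that was lower was SPRED2, an inhibitor of RAS-ERK signaling (-0.20, adjusted p = 0.0266). SPRED1 (0.007), ETV4 (-0.076), ETV5 (0.020), FOSL1 (-0.006) and SPRED3 (-0.34) did not pass. Nor did EGR1 (0.80, adjusted p = 0.0625, limma) and SPRY4 (0.35, adjusted p = 0.0547), which stood near the threshold. EGR1 was 7.6, 10.4 and 9.6 normalized counts in Caki2+Vector and 19.5, 23.1 and 10.1 in Caki2+PBRM1. Like PARM1, it passed the filter on low values only through Caki2+PBRM1. Its value is therefore not counted as a result, although it is among the 15 tested and in their median. SPRED2 and the genes that did not pass were named after their values were seen. ERK activity was not measured in these data.

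**Figure D5:**
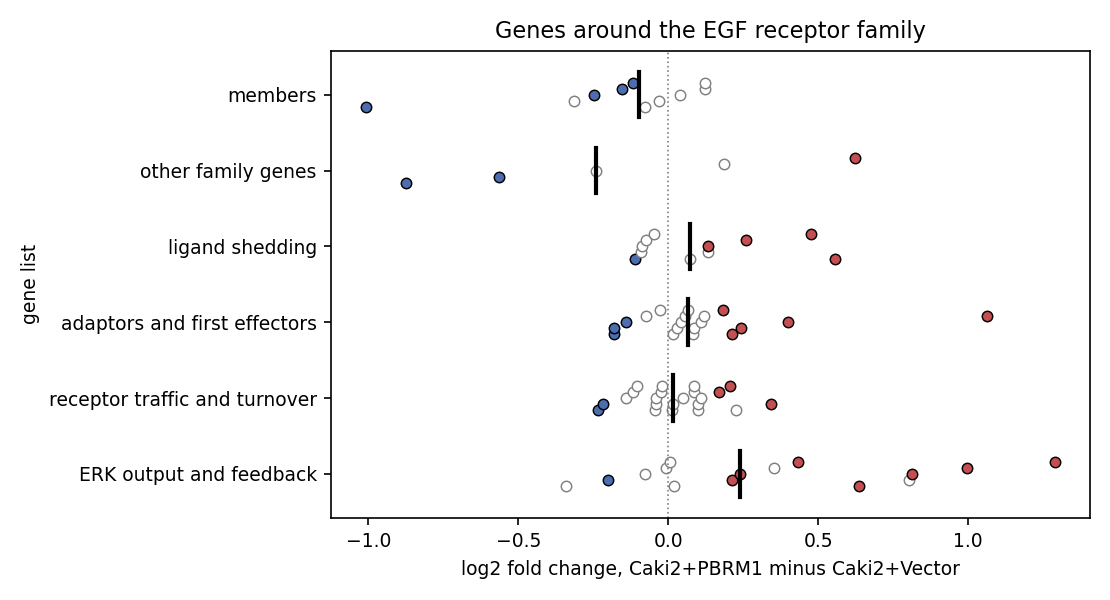
Log2 fold change (Caki2+PBRM1 minus Caki2+Vector) of each tested gene in the members and 5 pathway lists, with a bar at the median of each list and red and blue points past the threshold. The members past the threshold all lay below 0, while the list of ERK output and feedback had its median at 0.24.

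The genes whose pattern over the 6 samples was most like that of EGFR were ZCCHC4 (Pearson r = 0.9949), MEF2BNB (0.9948) and DDX27 (0.9941), among 10980 genes with a mean of at least 50 normalized counts. For ERBB3 they were OSBPL3 (r = 0.9974), NUP205 (0.9958) and ZPR1 (0.9956), among 10981. The 6 points share their libraries and group difference, and the values are given as a description without a test.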

How the data were processed

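RNA-Seq of 3 Caki2+Vector and 3 Caki2+PBRM1 samples was analysed, with groups and replicate letters taken from the sample labels. According to the methods, poly(A) RNA was sequenced in pairs of 100 bases, and the authors trimmed adapters, removed rRNA reads, aligned to hg19 with STAR and counted with HTSeq on a UCSC annotation. The methods name DESeq2 for the authors' normalization and testing. The signal values the authors deposited are normalized counts: every value is a whole multiple of 1 step per sample (100% of values within 0.01 of a whole read), so whole reads could be recovered. Genes with at least 10 normalized counts in at least 3 samples (13303 of 25369) were tested on log2(normalized count + 1) with limma 3.58.1 (trend and robust) in R 4.3.3, with Benjamini-Hochberg adjustment and a threshold of 0.05. Fold changes on this scale understate those of low genes. The count test of edgeR 4.0.16 (quasi-likelihood) on the recovered reads called 4030 genes and DESeq2 1.42.0 called 2553.

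At 7312955 to 10835355 reads per sample, log2 fold changes had a median SE of 0.083. Named genes were all 10 members and the other 6 family genes, up to 4 genes with the lowest adjusted p past the threshold from each pathway list and from the chromosome 4 stretch, PBRM1, and the 3 genes most like EGFR and ERBB3. Marker genes are named as a check of the cell type. Another marker gene is not reported here. The members and lists were chosen with earlier results of these data known. Gene positions are from GENCODE (GRCh37), and promoter sequences from RefSeq (GRCh38.p14). Scripts were tested on simulated data. Alternatives were voom, edgeR and DESeq2 on recovered reads, other scalings, filters, pseudocounts and threshold, the replicate block, and leaving out each replicate. Computations outside R used Python 3.11.15.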

Additional observations from a re-analysis of the deposited data

How the results depend on the processing

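Of the members, ERBB3 (log2 fold change -1.07 to -0.92, highest adjusted p = 0.00328) and EREG (-0.30 to -0.20, highest adjusted p = 0.00727) stayed lower and past the threshold in all 18 alternatives. EGFR kept its call in 11 of 18 and ERRFI1 in 14 of 18, with the direction held in all. Of the 10 members, 2 passed with DESeq2 on recovered reads, 2 at an adjusted p under 0.01, and 2 to 5 when a replicate was left out (2 without Caki2+PBRM1 B, 2 without Caki2+PBRM1 C, 5 without Caki2+Vector A). Of all genes, 3886 passed, against 2553 with DESeq2, 2521 at an adjusted p under 0.01 and 2856 to 4170 with a replicate left out. Of the pathway list genes, 29 passed, among them 3 of the other family genes, against 19 at an adjusted p under 0.01 and 22 to 31 with a replicate left out. The numbers tested were 5 other family genes, and 11, 19, 22 and 15 in the 4 lists in the order given above. Of all genes tested 29.2% passed. Scaling by the total count put 36.9% of called genes higher in Caki2+PBRM1, against 55.4%, with a median log2 fold change of all genes of -0.058 against -0.004. The sign turned for ERBB2 with that scaling (-0.016), and with a replicate left out for HBEGF (-0.265 to 0.211), BTC (-0.018 to 0.377) and NRG4 (-0.075 to 0.44), none of which passed the threshold. The cause was not tested. The replicate block gave 4107 genes past the threshold. Replicates with the same letter did not deviate together (Pearson r = 0.0059, -0.0077 and 0.0138 for A, B and C, and -0.0243 to 0.0173 between different letters), so the letters were not taken to pair the samples. With 10 to 76 reads a sample, AREG, HBEGF and BTC had intervals too wide to show changes of the size seen for EREG. The depth of the files does not extend to protein, ligand release or receptor activity, which were not measured in them.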
